A study of Mus musculus with 16 samples.

Results

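The mouse expression array used here carries, beside its probes for named genes, 4449 probes designed to intergenic stretches of the genome that are thought to be transcribed into long non-coding RNA. Each is named by a genomic interval of the mouse mm9 build and by a strand suffix, F or R, rather than by a transcript accession. A region probe counted as detected where at least 1 of the 4 groups had it marked by the scanner as well above background on each of its 4 arrays. By that rule 1336 of the 4449 region probes (30%) were detected, and they stood for 1118 of the 3229 intervals. Intervals that overlapped or lay within 10 kb of each other merged into 889 loci, of which 591 held 1 detected probe and 298 held more, up to 6.

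Long intergenic non-coding RNAs are transcripts that lie between protein-coding genes and carry no long reading frame. As a class they are known for low abundance and for expression that is more restricted to particular cell types than that of messenger RNA, and some act in the nucleus on chromatin or on transcription nearby. Tsc2 encodes tuberin, which restrains the kinase complex mTORC1, so that cells without it have high mTORC1 activity, and rapamycin inhibits that complex. Podocytes are the epithelial cells that wrap the glomerular capillaries and form the filtration slits.

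RNA came from primary podocytes grown out of glomeruli of male Jcl:ICR mice. The Tsc2Δpodocyte group carried floxed Tsc2 on both alleles and a heterozygous Cre transgene that recombines in podocytes; the Tsc2flox/flox control group carried the same floxed alleles without Cre. Each genotype was sampled untreated at 4 weeks of age and at 5 weeks after 1 week of rapamycin, with 4 arrays in each of the 4 groups. The untreated groups shared 1 slide and the rapamycin groups another, so treatment, age and slide cannot be told apart, and on each slide genotype and slide row cannot be told apart. No source used here says that the 4 samples of a group came from separate mice, so the p-values below speak only of the spread among the samples at hand, which may be technical.

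Tsc2 was lower in Tsc2Δpodocyte samples on both of its probes, with log2 fold changes of -1.35 and -1.43 untreated and -0.99 and -1.27 after rapamycin. Of 13 podocyte markers all were detected, 12 of them on all 16 arrays. Other cell types left signal too: the summed level of 10 endothelial markers, in multiples of each array's 75th percentile signal, ran from 13.4 to 94.8 in untreated Tsc2Δpodocyte samples and from 8.45 to 116 in untreated controls, but only from 6.61 to 11.03 and from 6.55 to 14.796 after rapamycin. At an adjusted p under 0.05 with no fold threshold, which 18% of all probes passed, the untreated genotype comparison found that 2 of 12 macrophage and leukocyte markers rose, Cd68 and Cd14 (summed level 14.5 to 22.3 against 10.2 to 19.97 in controls), 3 of 9 mesangial and smooth muscle markers rose (704 to 966 against 623 to 774), 2 of 7 parietal cell markers fell (30.8 to 117 against 69.4 to 162), and 1 of 8 tubule markers fell (0.885 to 1.71 against 1.59 to 2.00), with Slc34a1, Umod, Slc12a1 and Slc12a3 not detected. None of the 13 podocyte or 10 endothelial markers passed the test there. The part of these cells in the results that follow was not tested, and in RNA from such cultures fewer cells of a type and less RNA per cell cannot be told apart.

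Detection of the region probes lay far below that of messenger RNA probes and resembled that of the other probe classes, non-coding or not named as such. The share detected was 66% for 29638 probes with an NM_ (messenger RNA) accession and 27.6% for 2477 probes with an NR_ (non-coding RNA) accession, beside the 30% of the region probes. It was 29.9% for the remaining 20041 probes, which have other names. Within a group, 1203 region probes were above background on all 4 arrays in untreated Tsc2Δpodocyte samples, 1048 in untreated controls, 1207 in Tsc2Δpodocyte samples after rapamycin and 1183 in controls after rapamycin. The low count in untreated controls depended most on replicate 4, the array with the fewest region probes above background (1169, where the 16 arrays ran from 1169 to 1628). On the other 3 arrays of that group 1195 were detected, against 1051 to 1074 when another replicate was left out. Counts on 3 arrays were 1207 to 1268 in untreated Tsc2Δpodocyte samples. After rapamycin they were 1212 to 1263 in Tsc2Δpodocyte samples and 1187 to 1231 in controls. NM_ probes had their lowest share in untreated controls, at 61.2% against 63.4% to 64.2%.

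**Figure D1:**
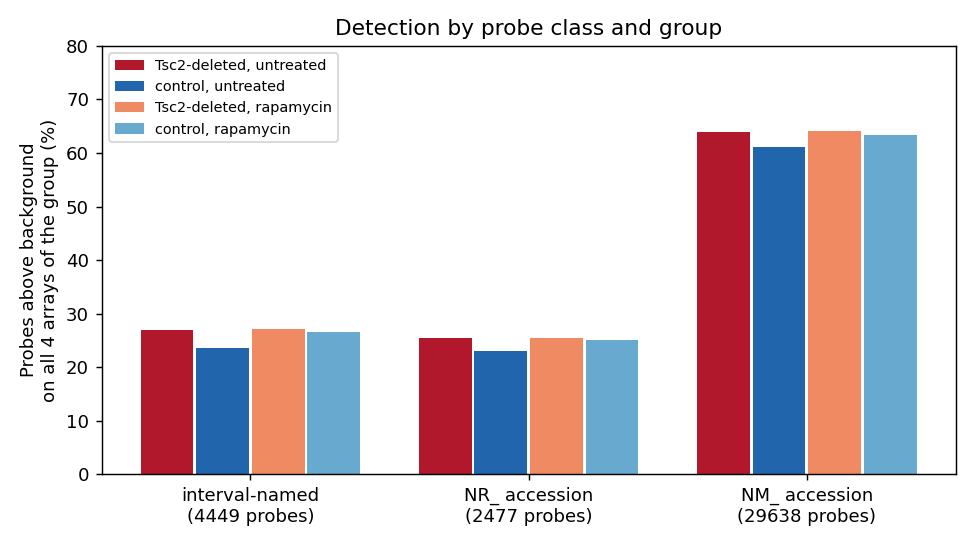
Bars give the percentage of probes of each class above background on all 4 arrays of a group; colours are the 4 groups. Region probes lay between 23.6% and 27.1%, close to NR_ probes and below NM_ probes, and untreated controls were lowest in each class.

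Of the detected region probes 983 (73.6%) were above background on all 16 arrays, against 91% of detected NM_ probes and 77.9% of detected NR_ probes. At the edge of the rule, 126 region probes were detected in a single group, with a median log2 signal of -4.88, and 144 probes just missed it, with 3 of 4 arrays above background at best and a median of -5.19. Here and throughout, log2 signal is taken relative to the 75th percentile of the array's non-control spots. Detection in a single group was also found for 508 of 19568 detected NM_ probes and 43 of 684 detected NR_ probes. The lowest signal marked above background was highest on untreated control replicate 4. It was -4.45 there, above the median of -4.88, and from -5.77 to -4.85 on the other arrays. What this array adds to the split by group was not tested. Among the 126, 55 were detected in untreated Tsc2Δpodocyte samples alone, 34 and 32 in the Tsc2Δpodocyte and control samples after rapamycin, and 5 in untreated controls. Those 5, named after their values were seen, were chr1:95871175-95886625 F, chr2:117781720-117937595 R, chr9:121256738-121257487 F, chr12:110842154-110883594 F and chr18:79286360-79304510 R. On at least 1 array, 2376 region probes were above background. By chromosome the share detected ran from 23.7% on chromosome 3 to 39.8% on chromosomes 14 and 17.

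Most detected regions were dim, with a bright minority. Their median log2 signal was -2.87, the range from the 10th to the 90th percentile was -4.61 to 1.55, and 242 of them (18.1%) exceeded the array's 75th percentile, against 51.9% of detected NM_ probes (median 0.16) and 26.9% of detected NR_ probes (median -2.32). Signals of different probes depend on their sequences, so only these distributions are set side by side. The brightest was chr11:22681800-22707775 R, which read 7.62, 7.51, 7.46 and 7.45 in untreated Tsc2Δpodocyte samples, 7.53, 7.57, 7.44 and 7.44 in untreated controls, 7.39, 7.51, 7.44 and 7.39 in Tsc2Δpodocyte samples after rapamycin and 7.55, 7.27, 7.36 and 7.22 in controls after rapamycin. The 4 groups overlapped, and no contrast passed the test. The next in brightness were chr17:17481706-17482457 R, chr7:108209996-108216032 R, chr14:78924115-78938125 F, chr12:73838608-73862621 R, chr17:48068261-48087905 F, chr4:136856064-136877219 R, chr6:116092274-116144199 F and a pair of probes for chr14:77006215-77063293 R. Of these 10 probes only that of chr17:48068261-48087905 was called in any contrast.

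Neither strand was favoured. On strand F 655 of 2227 probes were detected (29.4%), and on strand R 681 of 2222 (30.6%). For 832 intervals the array held probes on both strands: both strands were detected in 129, strand F alone in 154, strand R alone in 184 and neither in 365. Thus 27.6% of the double-stranded intervals with any signal had it on both strands. The likeness of 2 probes over the 16 arrays followed strand as well as place. Pairs of probes for the same interval and strand had a median Pearson r of 0.51 (98 pairs), whereas opposite strands of 1 interval had a median of 0.07 (129 pairs), neighbouring intervals of the same locus 0.21 (229 pairs) and neighbours in different loci 0.08 (869 pairs). These are descriptions across probes of the same 16 arrays, and probes are not independent replicates.

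**Figure D2:**
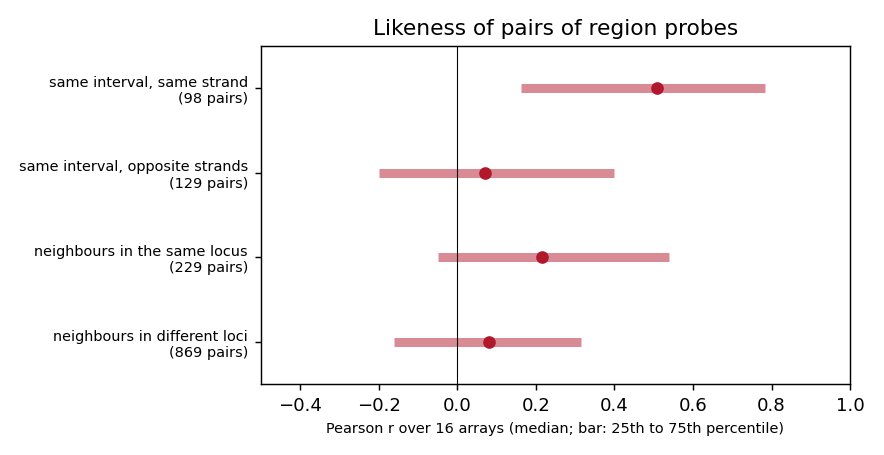
Points give the median Pearson r over 16 arrays for 4 kinds of pairs of detected region probes and bars the range from the 25th to the 75th percentile. Pairs on the same strand of an interval were the most alike (median 0.51), and opposite strands (0.07) were no more alike than neighbours in different loci (0.08).

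The untreated genotype comparison asks which RNAs differ when podocytes lack Tsc2. Called probes are those that changed by 1.5-fold or more with a Benjamini-Hochberg adjusted p under 0.05 over all 27579 probes tested. In it 140 of 1336 region probes (10.5%) were called, 83 higher and 57 lower in Tsc2Δpodocyte samples, beside 9.89% of all probes tested, 9.32% of NM_ probes and 12.7% of NR_ probes; by direction, 6.21% and 4.27% of region probes stood beside 5.95% and 3.95% of all probes. The share of region probes called was thus near the background. The 140 probes lay in 132 intervals and 117 loci, 80 on strand F and 60 on strand R. The median fold was 1.97 in either direction, 39 rose and 27 fell by over 2-fold, and the median log2 fold change over all 1336 was 0.05, against -0.01 for NM_ probes. In 97 of the 140 the lower group was above background on all 4 of its arrays, in 31 on 1 to 3 of them and in 12 on none. Of the 140, 9 had passed the detection rule only through the higher group of this comparison, which selects for a difference; among the 1210 region probes detected in more than 1 group, 123 (10.2%) were called.

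The largest rise belonged to a pair of overlapping intervals on chromosome 9. The probe of chr9:78107225-78118850 F read 2.79, 2.71, 5.24 and 4.06 in Tsc2Δpodocyte samples and -1.33, -2.18, 0.45 and -0.08 in controls. Every Tsc2Δpodocyte value lay above every control value, with a wide spread inside each group (SD 1.20 and 1.19). The log2 fold change was 4.49 ± 0.59 (SE, n = 4 against 4), a fold of 22.4 with an adjusted p of 0.000305. Its neighbour chr9:78104935-78116974 F gave 4.48 ± 0.54 (adjusted p = 0.000179). The members named in this paragraph and the next ones were selected among the largest called changes without overlap between the groups, so each reached 0.0286 in the exact two-sided permutation test, the smallest p that 4 against 4 samples allow.

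A second pair of overlapping intervals rose on chromosome 14. The probe of chr14:77258025-77278750 F read -3.40, -2.29, -2.59 and -2.06 in Tsc2Δpodocyte samples and -5.47, -4.53, -7.27 and -6.56 in controls, where 1 of the 4 arrays was above background. The measured difference was 3.38 ± 0.50 (adjusted p = 0.00057), and chr14:77261377-77274982 F rose by 3.20 ± 0.56 (adjusted p = 0.00189), again with 1 control array above background. Further along the same chromosome, all 3 probes of chr14:77511189-77522852 F rose, by 0.98 to 1.35. On chromosome 1, chr1:93812836-93816128 F read 0.71, 0.56, -1.51 and -0.70 against -2.10, -3.06, -2.72 and -2.91, a difference of 2.46 ± 0.38 (adjusted p = 0.000762). On chromosome 3, chr3:87757295-87774970 F, a bright region, read 2.82, 3.83, 2.04 and 3.08 against 0.28, 0.63, 0.93 and 0.97, a difference of 2.24 ± 0.40 (adjusted p = 0.00207). Smaller rises were those of chr1:122655019-122660142 F (1.55), chr12:106566735-106624460 R (1.48) and chr15:83181291-83197750 R (1.34). In a further pair no control array was above background, so that only a bound is given, computed against the lowest signal called above background on each control array: at least 1.51-fold for chr18:5119300-5181600 R and at least 1.33-fold for chr14:55672705-55675212 F. Both passed the detection rule only through untreated Tsc2Δpodocyte samples, the group where they were high, so their calls are given as a description.

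Among the named regions the largest falls were smaller than the largest rises. The probe of chr8:90048940-90049461 F read -5.65, -5.97, -4.63 and -4.42 in Tsc2Δpodocyte samples, 2 of them above background, and -3.39, -3.48, -3.06 and -3.38 in controls, a difference of -1.84 ± 0.35 (adjusted p = 0.00319). The interval chr8:89996710-90049453 F, which contains most of it, fell by 1.59 with all 16 arrays above background. Clearly above background as well was chr7:91558475-91733625 F, at -1.07, -0.96, -1.16 and -1.04 against 0.85, 0.03, 0.19 and 0.27, a difference of -1.40 ± 0.31 (adjusted p = 0.00688). The Tsc2Δpodocyte values of this probe were unusually close together (SD 0.08 against 0.36). Other falls were those of chr10:62267317-62269871 R (-1.48) and chr7:88131123-88136898 R (-1.61, with 1 Tsc2Δpodocyte array above background). The latter call was lost in 6 alternative settings. The difference of chr17:3346621-3347209 F was -1.57, with 1 Tsc2Δpodocyte array above background. For chr17:3198868-3394643 F, which overlaps the last, no untreated array of either genotype was above background, so neither a fold nor a test is given for it. Its call is still counted among the 140.

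**Figure D3:**
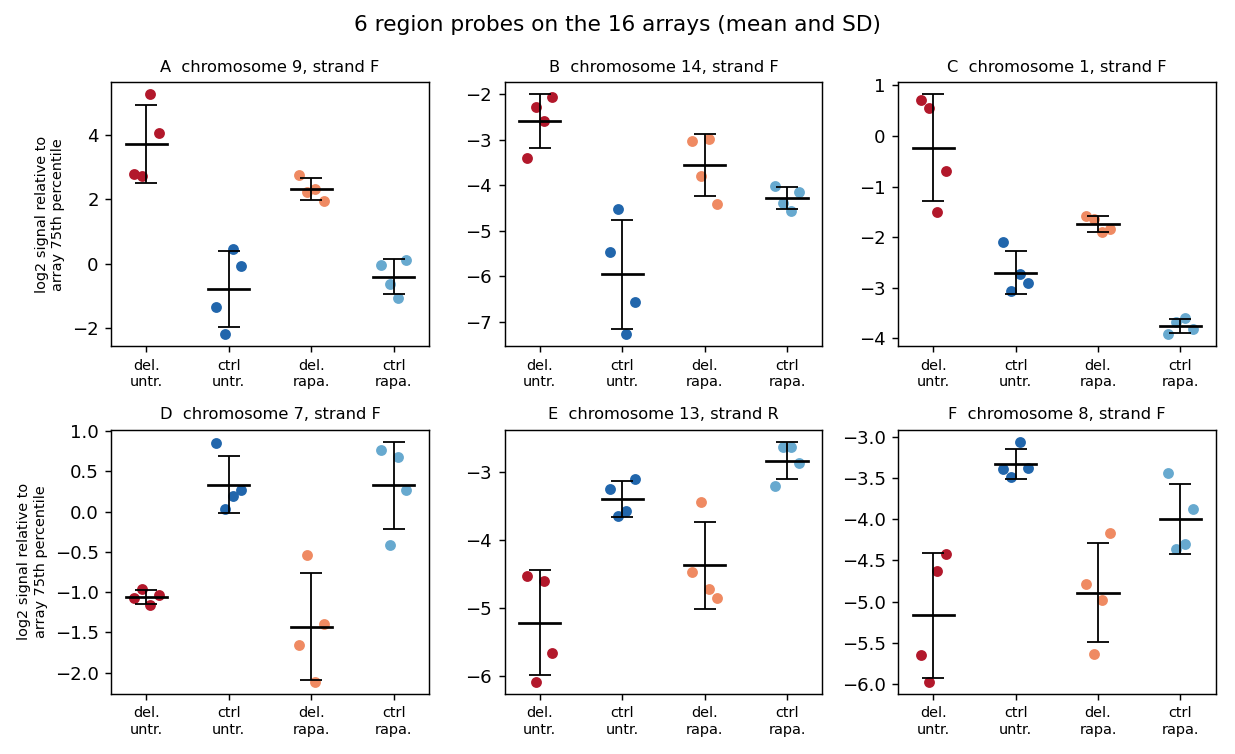
Points are single arrays, lines the group mean and whiskers the SD (n = 4) of log2 signal relative to the array's 75th percentile, for chr9:78107225-78118850 F (A), chr14:77258025-77278750 F (B), chr1:93812836-93816128 F (C), chr7:91558475-91733625 F (D), chr13:28947034-28949166 R (E) and chr8:90048940-90049461 F (F). In each of the 6, the untreated genotypes did not overlap; after rapamycin the genotypes did not overlap in A, C, D and E and overlapped in B and F.

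Several calls fell into shared loci. The locus chr13:28477490-28985604 had 4 of its 5 detected probes called, all on strand R and all lower. Of these, chr13:28947034-28949166 R read -4.53, -6.08, -4.60 and -5.65 in Tsc2Δpodocyte samples and -3.26, -3.65, -3.58 and -3.10 in controls, a difference of -1.82 ± 0.35 (adjusted p = 0.00329), with 2 Tsc2Δpodocyte arrays above background. The others were chr13:28551902-28975446 R (-1.79 ± 0.30, adjusted p = 0.00117), chr13:28700385-28760363 R (-1.65) and chr13:28537223-28539860 R (-0.75). With normexp all 4 calls were lost. The call at -0.75 was lost in 6 alternative settings, the methods' t-test after adjustment and the fit without untreated Tsc2Δpodocyte replicate 2 among them. In chr15:61984389-62102500, 3 of 5 detected probes were called lower: 1 of the interval's F probes (-1.57), its R probe (-0.78), and the F probe of chr15:62090565-62091770 (-0.85). The R probe was above background on 1 untreated Tsc2Δpodocyte array and 3 untreated control arrays, and was detected only through controls after rapamycin. Its call was lost in 8 alternative settings, among them quantile normalization, normexp and the methods' t-test after adjustment. In chr4:155560050-155571580, 3 of 5 were lower, all on strand R (-1.44, -1.32 and -1.16). There the call at -1.32 (adjusted p = 0.0442) was lost with quantile normalization, with normexp and without any 1 of the 8 arrays except control replicate 4. In chr4:129376440-129391690 all 3 were lower, also on strand R (-0.82, -0.70 and -0.61). The call at -0.61 was lost in 4 alternative settings, the deposited values among them.

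Probes of the same interval and strand did not always share a call. Among 80 such sets, none of the probes was called in 67, all in 4 and some in 9. The 4 were chr14:77511189-77522852 F, chr4:129380903-129390686 R, chr4:155560050-155570900 R and chr4:94719930-94825776 F. Limits on 1 probe each of chr4:129380903-129390686 R and chr4:155560050-155570900 R are given above. The interval chr4:94719930-94825776 F, with 0.68 and 0.96, was named after its values were seen. Between strands the calls were mostly separate: of the 129 intervals detected on both strands, 13 had a call on 1 strand, 2 had a call on each and 72 had changes of the same sign. A call of any probe of a strand counted, while sign and r used 1 probe per strand, which need not be the called one. The interval chr19:56820850-56837925 was 1 of the pair called on each strand, rising by 1.01 on strand F and by 0.97 on strand R, and its strands had an r of 0.93 over the 16 arrays. The other was chr15:61984389-62102500, with the limit on its R probe given above. Its F strand entered the sign with a probe at -0.39, which was not the called F probe.

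The number of region probes called in this comparison was 61 with normexp background correction in place of the scanner's processed signal and 68 with the methods' t-test after adjustment. With quantile normalization the split of calls was 121 higher and 43 lower, in place of 83 and 57.

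After rapamycin the genotype comparison called 71 of 1336 region probes (5.31%), 33 higher and 38 lower, beside 5.29% of all probes (2.7% higher and 2.59% lower), 5.17% of NM_ probes and 4.82% of NR_ probes. Again the share was at the background, and 5 of the 71 had passed the detection rule only through the higher group of this comparison. At an adjusted p alone, which 10.3% of all probes passed here, 1 of 13 podocyte and 1 of 9 mesangial markers rose, and 2 of 7 parietal and 1 of 4 tested tubule markers fell. Of the 71, 46 had also been called untreated, 22 higher and 24 lower in each; they made up 32.9% of the untreated calls and 64.8% of the calls after rapamycin, where the shares over all probes were 36.1% and 67.4%. Of the 140 region probes called untreated, 136 (97.1%, over all probes 96.8%) kept their sign after rapamycin and 122 were smaller, with a median size of 0.98 untreated and 0.63 after rapamycin. Since the 140 were chosen for a large difference on the untreated slide, a smaller value elsewhere follows in part from that choice.

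**Figure D4:**
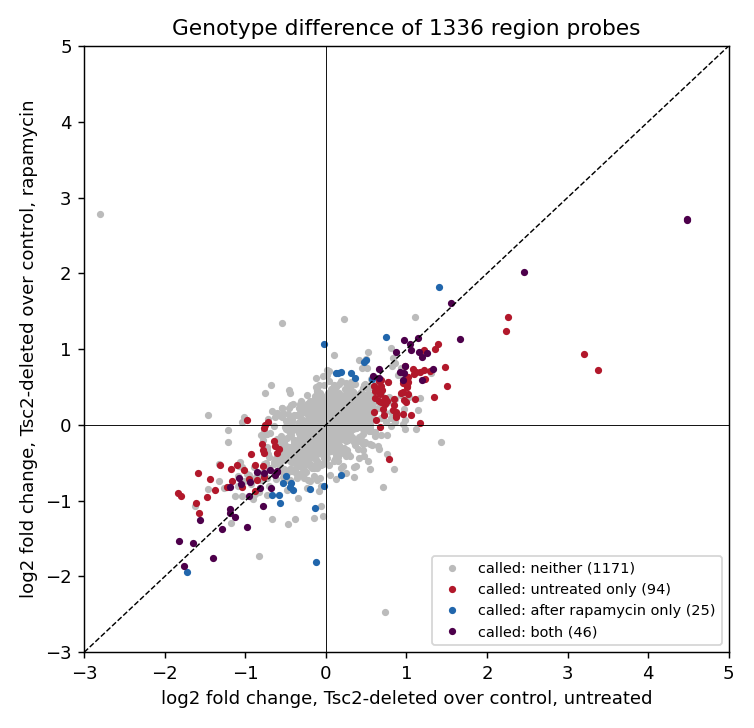
Each point is 1 of 1336 detected region probes, with its log2 fold change of Tsc2Δpodocyte over control untreated (horizontal) and after rapamycin (vertical); colours mark calls and the dashed line is equality. The 46 probes called in both comparisons have the same sign in each, and most called probes lie nearer to 0 after rapamycin.

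The chromosome 9 pair remained the largest rise. The probe of chr9:78107225-78118850 F read 2.76, 2.23, 2.31 and 1.94 in Tsc2Δpodocyte samples after rapamycin and -0.03, -0.63, -1.06 and 0.11 in controls. The genotypes did not overlap, and the spread was narrower than on the untreated slide (SD 0.34 and 0.54). The difference was 2.71 ± 0.59 (adjusted p = 0.0121), and 2.70 ± 0.54 for chr9:78104935-78116974 F (adjusted p = 0.00839). On chromosome 1, chr1:93812836-93816128 F stayed higher, at -1.57, -1.65, -1.90 and -1.83 against -3.91, -3.67, -3.60 and -3.81 (2.01 ± 0.38, adjusted p = 0.00696), and so did chr1:122655019-122660142 F (1.61). The probes of chr9:96680338-96682881 F and chr16:23534663-23535172 F rose by 1.14 and 1.15. Each of these calls was lost in 9 alternative settings, fits without 1 array included. The chromosome 16 probe was above background on 2 control arrays after rapamycin. The chromosome 14 pair no longer passed: chr14:77258025-77278750 F read -3.02, -3.79, -2.99 and -4.41 against -4.02, -4.39, -4.57 and -4.15, with all 8 arrays above background. The genotypes overlapped, and the difference was 0.73 ± 0.50 (adjusted p = 0.383).

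Among the falls, chr7:91558475-91733625 F read -1.66, -0.54, -2.11 and -1.40 in Tsc2Δpodocyte samples after rapamycin and 0.77, -0.42, 0.68 and 0.27 in controls. The genotypes did not overlap, though by a narrow margin between 1 array of each, and the difference was -1.75 ± 0.31 (adjusted p = 0.005). In the chromosome 13 locus, chr13:28947034-28949166 R and chr13:28700385-28760363 R stayed lower (-1.54 and -1.56). The probe of chr17:3198868-3394643 F was above background on all 4 control arrays and on no Tsc2Δpodocyte array, which gives at least 1.57-fold lower; it passed the detection rule only through these controls, so this is a description. The probe of chr10:5950116-5958250 F fell by 1.37, with 1 Tsc2Δpodocyte array above background, and its call was lost in 10 alternative settings. The probe of chr10:126831225-126832253 F read -5.30, -5.01, -5.71 and -5.44 against -3.83, -2.33, -3.73 and -4.35, a difference of -1.80 ± 0.44, and it too was detected only through these controls. Its untreated difference was -0.12, and the interaction did not pass (-1.68, adjusted p = 0.639).

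The count of 71 fell to 37 without Tsc2Δpodocyte replicate 1, 46 without Tsc2Δpodocyte replicate 4, 40 without control replicate 3 and 37 without control replicate 4, to 15 with normexp and to 22 with the methods' t-test after adjustment. With quantile normalization it was 65, split into 42 higher and 23 lower in place of 33 and 38.

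Whether the genotype difference itself changed with rapamycin was tested as an interaction. No region probe was called by limma (smallest adjusted p = 0.598), where 1 of 27579 probes was (0.00363%); at an unadjusted p under 0.05 there were 117 region probes (8.76%) beside 7.36% of all probes. Normexp called 1 region probe, chr8:48476637-48492537 F, named after its values were seen. It read 4.38, 4.51, 4.07 and 4.30 in untreated Tsc2Δpodocyte samples against 3.51, 2.96, 3.24 and 3.32 in controls, and 3.75, 3.24, 3.65 and 3.51 against 3.13, 3.40, 3.67 and 3.40 after rapamycin. The genotypes were apart untreated (1.06, adjusted p = 0.000447) and overlapped after rapamycin (0.13, adjusted p = 0.617); the interaction was -0.92 ± 0.21 (adjusted p = 0.598), and with normexp -1.19 (adjusted p = 0.0483). The largest interaction estimate was that of chr2:181650800-181669350 F, also named afterwards, at 5.59 ± 1.57 (adjusted p = 0.615). Its values varied widely inside the groups: 1.92, -1.60, -3.29 and -3.24 in untreated Tsc2Δpodocyte samples, -0.02, 2.89, 0.22 and 1.90 in untreated controls, 0.84, 0.26, 1.40 and 1.76 in Tsc2Δpodocyte samples after rapamycin and -2.99, -1.53, -3.16 and 0.78 in controls after rapamycin. All 16 values were above background, and neither genotype contrast passed the test.

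The contrasts of rapamycin with untreated samples also compare slides and ages. In controls, 4 of 1336 region probes (0.299%) were called, all lower, beside 0.105% of all probes called, 0.0616% higher and 0.0435% lower. They were chr8:26345571-26346095 R (-0.86), chr17:22420025-22457650 F (-0.75), chr8:91569369-91594119 F (-0.68) and chr11:35810031-35810205 F (-0.62), each with an adjusted p of 0.0468. The probe of chr8:91569369-91594119 F read 0.47, 0.01, 0.12 and 0.22 in untreated controls and -0.52, -0.57, -0.48 and -0.33 after rapamycin. It fell in Tsc2Δpodocyte samples as well, from 0.62, 0.42, 0.25 and 0.16 to -0.36, -0.56, -0.70 and -0.50 (-0.89 ± 0.12, adjusted p = 0.00487). Leaving out any 1 of the 8 control arrays left no region probe called, except control rapamycin replicate 1, without which 7 were. That of chr8:91569369-91594119 F was not among the 7. The 4 calls were lost in 13, 13, 14 and 12 alternative settings, in the order named.

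In Tsc2Δpodocyte samples 35 region probes (2.62%) were called, 4 higher and 31 lower, beside 1.65% of all probes, 1.42% of NM_ probes and 1.46% of NR_ probes. By direction 0.299% were higher and 2.32% lower, beside 0.529% and 1.12% of all probes. The 5991 tested probes under other names had 2.19% called, 0.384% higher and 1.8% lower. Of the 31 region probes called lower, 29 also had a difference below 0 in controls, where 43.4% of all 1336 lay above 0. Untreated, 11 of the 31 had been called higher in Tsc2Δpodocyte samples, a comparison that shares the untreated Tsc2Δpodocyte arrays. The largest fall was that of chr1:93812836-93816128 F (-1.50 ± 0.38, adjusted p = 0.046), a call that was lost with quantile normalization, in the fit of the 8 arrays alone and without any 1 of the 8 arrays except untreated replicate 3. Next was chr1:36086491-36087863 R, from -4.11, -4.12, -3.62 and -3.99 to -4.87, -6.27, -4.86 and -5.00, with 3 of the latter above background (-1.29 ± 0.25); it passed the detection rule only through untreated Tsc2Δpodocyte samples, as did 3 of the 35 in all, so this fall is a description. Falls of 1.04, 1.02, 1.00 and 0.97 followed for chr3:90425270-90435820 F, chr5:137411861-137413010 F, chr16:13468953-13474394 F and chr17:29374758-29387733 F. Their calls were lost in 8, 7, 9 and 9 alternative settings, fits without 1 array included. The 4 that rose were chr15:8463685-8494960 R (0.83), chr17:13806767-13824342 R (0.65), chr1:161992257-161992963 F (0.64) and chr13:48576557-48581836 F (0.60). These calls were lost in 5, 11, 10 and 14 such settings, in the order named. The probe of chr1:161992257-161992963 F read -4.40, -4.74, -4.32 and -4.38 untreated and -3.86, -3.58, -4.06 and -3.79 after rapamycin, while its untreated controls read -3.23, -3.32, -3.27 and -3.28. It was lower in Tsc2Δpodocyte samples on both slides (-1.18 and -0.82).

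The count of 35 was 10 without untreated replicate 1, 10 without untreated replicate 2, 11 without untreated replicate 4, 22, 11 and 20 without rapamycin replicates 1, 2 and 4, 18 with normexp, 6 when only the 8 arrays compared were fitted and 0 with the methods' t-test after adjustment. The endothelial markers had a median log2 fold change of -2.08 between the same slides in Tsc2Δpodocyte samples and -2.22 in controls, with 0 of 10 passing the test; without the untreated arrays highest in it, Tsc2Δpodocyte replicate 3 and control replicate 1, 42 were called here and 0 in controls, an alternative chosen after seeing the data.

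Over all 1336 region probes the median log2 fold change with rapamycin was -0.11 in Tsc2Δpodocyte samples and -0.04 in controls, against 0.01 and -0.01 for NM_ probes and -0.08 and -0.02 for NR_ probes. In Tsc2Δpodocyte samples 37.2% of region probes had a difference above 0, where 51.1% of NM_ probes and 41.1% of NR_ probes did. Among tested probes under other names the share was 41.2%, with a median of -0.06. With normexp the medians of region probes were -0.06 and 0.04, so that the direction in controls turned.

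**Figure D5:**
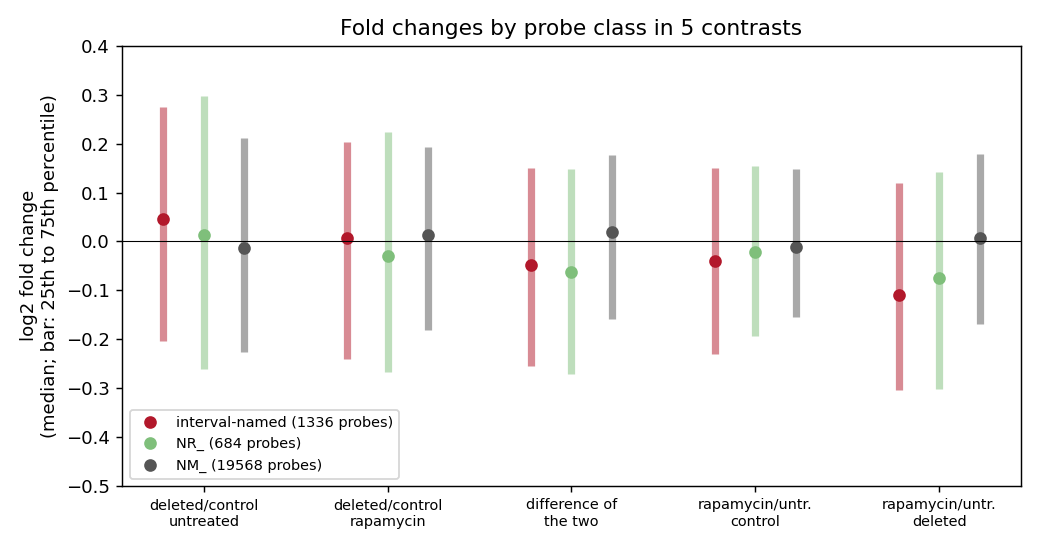
Points give the median log2 fold change over the detected probes of a class and bars the range from the 25th to the 75th percentile, in 5 contrasts. Region probes and NR_ probes lay below NM_ probes in the rapamycin contrast of Tsc2Δpodocyte samples (medians -0.11, -0.08 and 0.01). Tested probes under other names, with a median of -0.06 there, are not drawn. The bars show the spread of single probes and not the error of a median.

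For the relation to genes, each detected region probe was compared over the 16 arrays with all tested probes that could be matched to a gene, and the gene with the highest Pearson r was recorded. A gene picked in this way tends to share the region's group differences, so like changes of region and gene are a description. Distances to genes were not computed, because the intervals are on mm9 and the gene table used here is on GRCm38; only the chromosome of each gene was used. The median of the highest r was 0.88, and 86 of 1336 region probes (6.44%) had their most alike gene on their own chromosome, where 5.17% of the genes compared lie on the chromosome of a given region on average. The share was 6.6% of 1213 region probes with an r of at least 0.8, 7.8% of 487 at 0.9, 9.57% of 94 at 0.95 and 18.2% of 33 at 0.97, where the overlapping chromosome 9 pair gave 2 of the 6.

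The chromosome 9 pair was the clearest case. The probe of chr9:78104935-78116974 F followed Gsta2, a glutathione S-transferase that conjugates glutathione to reactive compounds, with r = 0.999, and Gsta2 itself rose by 4.42 untreated and 2.50 after rapamycin, beside 4.48 and 2.70 for the region. The overlapping chr9:78107225-78118850 F followed Gm10639, also on chromosome 9, with r = 0.998 (gene 4.46 and 2.54). On chromosome 6, chr6:127111250-127142925 F followed the glycolytic enzyme gene Tpi1 with r = 0.983. That region read -1.77, -1.16, -2.08 and -1.90 against -2.91, -2.57, -3.06 and -2.99 in untreated controls (1.15 ± 0.16, adjusted p = 0.000492) and was 0.96 higher after rapamycin, where Tpi1 was higher by 1.19 and 1.01. On chromosome 19, chr19:56820850-56837925 R followed Pgam1, another glycolytic enzyme gene, with r = 0.976 (region 0.97 and 0.69, gene 0.79 and 0.45).

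Other close pairs lay on different chromosomes. The bright chr17:48068261-48087905 F read 6.71, 7.25, 6.67 and 6.73 in untreated Tsc2Δpodocyte samples and 5.72, 6.16, 5.81 and 5.86 in controls (0.95 ± 0.13, adjusted p = 0.000323), and followed Mif on chromosome 10, which encodes macrophage migration inhibitory factor, with r = 0.992; Mif rose by 0.95. The region chr6:145936225-145965575 R (1.25 untreated, 0.95 after rapamycin) followed Ftl1, the ferritin light chain gene on chromosome 7, with r = 0.976 (gene 0.88 and 0.62), and chr2:59235155-59242518 F (1.19 and 0.59) followed Ak4, a mitochondrial adenylate kinase gene on chromosome 4, with r = 0.975, although Ak4 differed more (2.71 and 1.83). The region chr1:93812836-93816128 F followed Col1a2, a fibrillar collagen gene on chromosome 6, with r = 0.976 (gene 2.40 and 2.47). Probe sequences were not used here, so whether a region probe also binds the transcript of the gene it follows was not tested.

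Some regions followed named non-coding RNAs of their own chromosome. The region chrX:47893703-47996700 R followed Firre, an X-linked non-coding RNA, with r = 0.97, and ranged from -7.79 to -2.55 over the 16 arrays; it was at -7.79, -3.92, -7.66 and -7.15 in Tsc2Δpodocyte samples after rapamycin, 1 of them above background, and no contrast passed the test. The region chr18:61809278-61825191 R followed Carmn, a non-coding RNA of smooth muscle, with r = 0.97. On chromosome 12, chr12:110842154-110883594 F and chr12:110894095-110899517 F followed Meg3 and Rian, maternally expressed imprinted non-coding RNAs, with r = 0.937 and 0.934. They read 1.46 and 1.13 lower in untreated Tsc2Δpodocyte samples, with adjusted p of 0.0743 and 0.174, so that neither difference passed. An F probe of chr15:61984389-62102500 followed Pvt1, the non-coding RNA next to Myc, with r = 0.930, and was 0.39 lower (adjusted p = 0.0166, under the fold threshold). On chromosome 4, chr4:114585803-114588898 F followed Foxd2os with r = 0.945 and read -0.98, -0.88, -1.99 and -1.71 in untreated Tsc2Δpodocyte samples against -0.25, -0.64, 0.00 and 0.25 in controls, a call of -1.23 ± 0.31 (adjusted p = 0.0154). Of 36 named non-coding RNAs chosen as comparators 24 were tested; in the untreated genotype comparison none rose and 2 fell, Pvt1 (-0.56, on its brightest probe) and Epb41l4aos (-0.57), and with rapamycin in Tsc2Δpodocyte samples Snhg1 (0.41) and Epb41l4aos (0.73) rose. These counts use an adjusted p under 0.05 with no fold threshold, which 3.38% of all probes passed in the latter contrast.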

How the data were processed

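RNA of 16 samples was hybridised by the authors to 16 Cy3 arrays of a mouse whole-genome Agilent design and scanned with Agilent Feature Extraction 10.7.3.1, per the file headers, which name mm9. The deposited intensity values were the scanner's processed signals, already background-subtracted by the authors' software. A deposited log2 table, centred per probe by the authors, was used as an alternative only; over tested probes it had an r above 0.999 with the values used here, after centring, and its scale and direction matched. Outlier spots were dropped, spots of a probe averaged, and log2 signals taken relative to each array's 75th percentile over non-control spots. Depth has no counterpart on arrays, and the number of arrays limits the precision.

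Groups came from the labels. A linear model of the 4 group means over all 16 arrays was fitted with limma 3.58.1 in R 4.3.3 to the 27579 probes that 1 group or more had above background throughout, with Benjamini-Hochberg adjustment over all of them, and tested on simulated data. Calls needed a fold of 1.5 and an adjusted p under 0.05, as in the authors' methods. Named regions were up to 12 rises and 12 falls untreated and 6 in the other contrasts, called and without overlap between groups, the 10 brightest, 6 loci with the most calls, and 8 called in both genotype comparisons. Members and lists were chosen with earlier results of these data known, and the comparison with gene patterns was added after seeing the data. Probe sequences and an mm9 annotation were not used here, so no sequence is printed and the nearest gene was not analysed.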

Additional observations from a re-analysis of the deposited data

Results flagged for a closer look

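Among 260 sets of 4 values (65 named probes in 4 groups), 15 held 1 sample that stood apart from the other 3 by Dixon's test, where chance gives about 1 in 20. Values are log2 signals relative to the array's 75th percentile. In Tsc2Δpodocyte samples, untreated replicate 2 was high in chr17:48068261-48087905 F (7.25, others 6.67 to 6.73) and chr19:56820850-56837925 R (5.11, others 4.53 to 4.59), untreated replicate 3 was low in chr1:122655019-122660142 F (-3.88, others -3.36 to -3.26), and rapamycin replicate 2 was low in chr1:36086491-36087863 R (-6.27, others -5.00 to -4.86).

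In untreated controls, replicate 2 was high in chr19:56820850-56837925 R (4.00, others 3.61 to 3.65) and chr7:108209996-108216032 R (7.10, others 6.91 to 6.93) and low in chr6:116092274-116144199 F (5.68, others 5.96 to 5.99), and replicate 1 was high in chr4:129376440-129391690 R (-2.78, others -3.27 to -3.19).

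In controls after rapamycin, replicate 1 was high in chr11:35810031-35810205 F (2.65, others 2.46 to 2.50) and low in chr17:22420025-22457650 F (-2.45, others -2.12 to -2.10) and in both probes of chr4:129380903-129390686 R (-0.66, others -0.30 to -0.26, and 1.03, others 1.42 to 1.47). Replicate 3 was low in 2 probes of chr14:77511189-77522852 F (-3.22, others -2.22 to -2.03, and -2.56, others -1.64 to -1.53). Replicate 4 was low in chr17:48068261-48087905 F (5.61, others 5.77 to 5.79).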

How the results depend on the processing

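Counts of region probes called are given in the order untreated genotype (140), genotype after rapamycin (71), rapamycin in Tsc2Δpodocyte samples (35) and rapamycin in controls (4). With a 2-fold threshold they were 66, 26, 4 and 0, with normexp 61, 15, 18 and 7, and with the methods' t-test after adjustment 68, 22, 0 and 0. Without adjustment that test gave 185, 127, 96 and 58. With no filter on dim probes the counts were 117, 44, 3 and 0, and with only the 8 arrays compared 118, 50, 6 and 0. The interaction had 1 call with normexp and 0 in the other settings run; the methods' t-test was not run for it. With the replicate number as a block the counts were 132, 54, 33 and 0, and 0 for the interaction; of the named calls after rapamycin those of chr9:96680338-96682881 F, chr16:23534663-23535172 F and chr10:5950116-5958250 F were then lost. The numbers were not taken as pairs, since same-numbered samples had correlated deviations over 0.1 in 0 of 4 cases untreated (-0.30 to -0.01) and in 3 of 4 after rapamycin (-0.02 to 0.46). Leaving out 1 array gave 101 to 137, 37 to 74, 10 to 42 and 0 to 7; the low of 101 was without untreated control replicate 4. Without the 2 untreated arrays highest in endothelial markers, chosen after seeing the data, the counts they enter were 130 for the untreated genotype, 42 and 0 for rapamycin. Counting intervals gave 1118 detected, merged loci 889, probes on all 16 arrays 983 and on at least 1 array 2376. The untreated median log2 fold change of region probes was -0.22 with no filter, where all 4449 probes entered; it lay above 0 in the other settings run. The cause of the other shifts was not tested. Of 1400 values of named regions under alternatives, 1140 kept their side of the threshold, 260 missed it, and 0 reversed. These regions had been chosen as called in the same arrays, so a reversal could hardly occur and its absence is no support. The nearest gene was not analysed, so the settings listed for it were not run. A region at or near background on the arrays of a group has only a bound there.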
